A study of Homo sapiens with 3 samples.

Results

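The genes described here are 6 long non-coding RNAs (lncRNAs) that carry microRNA hairpins: MIR22HG, MIR17HG, MIR31HG, MIR155HG, MIR210HG and DLEU2. They were taken by gene name from the deposited tables of ribosome footprints, in which they hold 10 of 47239 transcript rows and are 6 of 25357 gene symbols. The study asked which lncRNAs of human cells are bound by ribosomes and give rise to proteins. Its lines were HBE, from bronchial epithelium, A549, from a lung adenocarcinoma, and H1299, from a non-small cell lung carcinoma, each grown in complete DMEM under normal conditions, with no agent or engineered allele named in the labels and with 1 footprint library per line. Since no line has a replicate, every ratio below sets 1 library against another and not 1 kind of cell against another, without a replicate check or a p-value.

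A microRNA host gene is transcribed as a long primary transcript from which the nuclear enzyme DROSHA, with DGCR8, cuts a hairpin. Exportin 5 carries the hairpin to the cytoplasm, DICER1 trims it to a mature microRNA, and an Argonaute protein uses the seed near its 5′ end to find messages to repress. Where the hairpin lies in an exon, cutting it out breaks the spliced host RNA, and where it lies in an intron, host and microRNA can be made from the same transcript. The footprint libraries were made with a small RNA kit, and the tables give no read lengths, so footprints and microRNAs of similar size cannot be told apart on the rows of the hairpins.

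The mature microRNAs of the 6 hosts are printed because a seed in common puts microRNAs of different hairpins in 1 family. They were copied from RefSeq (GRCh38.p14), 5′ to 3′, with the seed, bases 2 to 8, in capitals.
hsa-miR-22-3p (MIR22HG): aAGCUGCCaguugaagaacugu
hsa-miR-17-5p (MIR17HG): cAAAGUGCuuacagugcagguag
hsa-miR-20a-5p (MIR17HG): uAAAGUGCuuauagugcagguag
hsa-miR-18a-5p (MIR17HG): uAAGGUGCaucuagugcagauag
hsa-miR-19a-3p (MIR17HG): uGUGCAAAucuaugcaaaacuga
hsa-miR-19b-3p (MIR17HG): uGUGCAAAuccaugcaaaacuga
hsa-miR-92a-3p (MIR17HG): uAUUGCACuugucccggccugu
hsa-miR-31-5p (MIR31HG): aGGCAAGAugcuggcauagcu
hsa-miR-155-5p (MIR155HG): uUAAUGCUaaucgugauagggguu
hsa-miR-210-3p (MIR210HG): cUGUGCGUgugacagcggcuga
hsa-miR-15a-5p (DLEU2): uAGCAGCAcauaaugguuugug
hsa-miR-16-5p (DLEU2): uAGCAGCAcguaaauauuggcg
The seed AAAGUGC is in both miR-17-5p and miR-20a-5p, GUGCAAA in both miR-19 members, and AGCAGCA in both microRNAs of DLEU2. Each of the other 6 seeds occurs once among the 12.

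The HBE library held 43580281 mapped reads, the A549 library 38268527 and the H1299 library 35751992, of which 79.2% to 81.8% lay on NM rows, the RefSeq transcripts of coding genes. Levels are given as reads per 1000000 NM reads, on which scale 3 reads, the floor at which a count of 0 is drawn, come to between 0.0869 in HBE and 0.105 in H1299. The exact 95% upper limit of a count of 0 is 3.69 reads, or 0.107 in HBE and 0.130 in H1299. Values with no line named beside them are in the order HBE, A549, H1299. A single gene, TREML2, took 19.0%, 15.3% and 15.2% of the NM reads. On this scale the median gene had a log2 ratio of 0.38 for A549 against HBE, 0.41 for H1299 against HBE and 0.03 for H1299 against A549, and the ratios of the hosts are to be read against these shifts. Of the labels, HBE had the basal airway keratins KRT5 (11262 reads, against 104 in A549 and 72 in H1299) and KRT17 (34593 against 46 and 96), and VIM, a mesenchymal intermediate filament, had 124, 15327 and 43694 reads. KRT14, a further basal marker, had only 54 reads in HBE. The 5 leukocyte markers summed to 1947, 3143 and 3029 reads, and their part in the values of the hosts was not tested. CDKN2A, which A549 cells are known to have lost, was still listed with 153 reads in A549. MIR155HG, MIR210HG and DLEU2 had fewer reads in A549 than CDKN2A, and where such reads come from was not tested.

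All 6 hosts had at least 10 reads in every library, the threshold the study used for detection, and so had 9 of their 10 rows. Of all 7466 non-coding rows, 59.0%, 63.0% and 61.8% reached it. The hosts together had 15474 reads in HBE, 25428 reads in A549 and 22930 reads in H1299, or 0.0355%, 0.0664% and 0.0641% of the reads mapped. Per length and depth, 1 row of MIR22HG was far above the others, MIR31HG came next in each library, and MIR17HG, MIR155HG, MIR210HG and DLEU2 had rows between 0.184 and 3.30 RPKM, where the median non-coding row had 0.281, 0.439 and 0.427 RPKM. The plot of RPKM by transcript row shows all 10 rows.

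**Figure D1:**
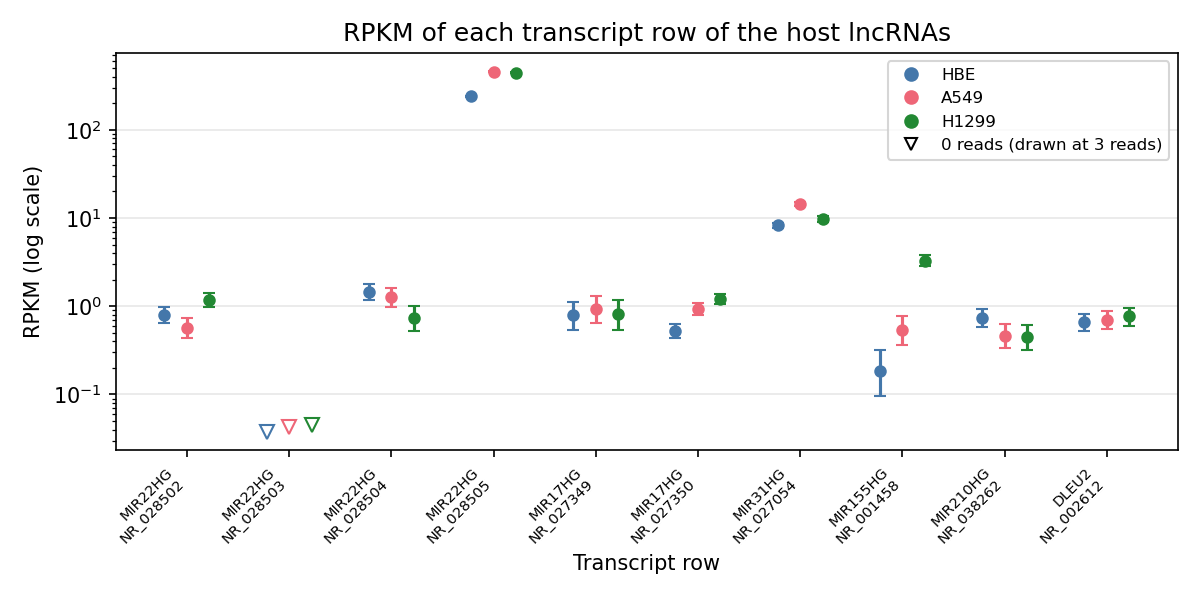
RPKM (log scale) of each of the 10 transcript rows of the 6 hosts in HBE (blue), A549 (red) and H1299 (green), 1 library each, with exact 95% counting intervals; open triangles mark a row with 0 reads, drawn at 3 reads. NR_028505 of MIR22HG stands at 240 to 458 RPKM and MIR31HG at 8.24 to 14.3 RPKM, and NR_028503 of MIR22HG had 0 reads in each library.

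A gene was called higher or lower between 2 libraries when it had at least 20 reads over both and the exact 95% counting interval of its ratio lay wholly beyond 2 times. By this rule 0 of 6 hosts were called in A549 against HBE, where 9.27% of all genes tested were called, 1 of 6 in H1299 against HBE, where 12.7% were, and 1 of 6 in H1299 against A549, where 8.77% were. Of non-coding genes of at least 200 nt, 4.07%, 7.07% and 3.93% were called in these pairs. Of the calls over all genes, 65.1%, 64% and 48.1% were higher, against 36.9%, 35.1% and 45.2% under TMM scaling, an alternative that sets the typical gene near a ratio of 1. No host or hairpin gained or lost a call under the 3 other scalings, whereas genes of the lists did. Such changes are given beside named genes, though not for every scaling. The host called was MIR155HG in both cases. The median log2 ratio of the 6 hosts was 0.71, 0.55 and 0.08 in these pairs, next to 0.38, 0.41 and 0.03 over all genes. Over non-coding genes of at least 200 nt it was 0.52, 0.56 and 0.05. Any 2 of these pairs share a library. A ratio of footprint reads cannot tell more RNA per cell from more cells with the RNA. Nor can it tell either from more ribosomes on each RNA, since mRNA libraries were not analysed here.

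**Figure D2:**
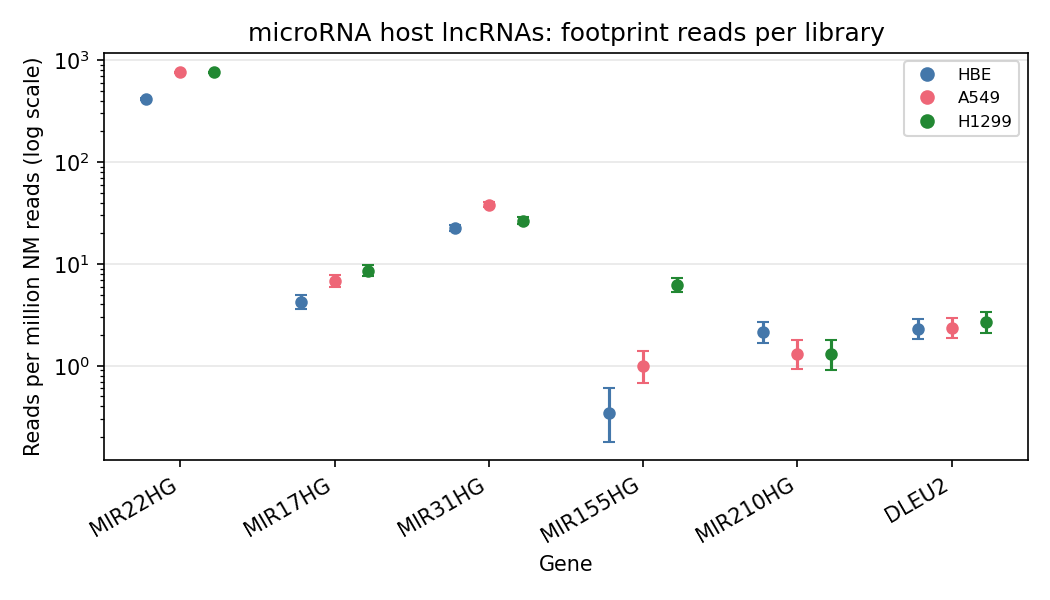
Reads per 1000000 NM reads (log scale) of the 6 hosts in HBE (blue), A549 (red) and H1299 (green), summed over the rows of a gene, 1 library each, with exact 95% counting intervals. MIR155HG spans 0.348 to 6.22, whereas the 3 values of DLEU2 lie between 2.32 and 2.67.

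MIR155HG, the BIC gene from which the immune cell microRNA miR-155 is made, had 12 reads in HBE, 31 reads in A549 and 177 reads in H1299. The counting intervals of the 3 libraries did not overlap, and H1299 was the highest. Its single row, NR_001458 (1500 nt), had 0.184 RPKM for HBE, 0.540 for A549 and 3.30 for H1299. H1299 had 17.2 times the level of HBE (95% counting interval 9.98 to 35.2) and 6.19 times that of A549 (4.27 to 9.51), and both were called. A549 had 2.78 times the level of HBE, with an interval of 1.42 to 6.09 that reaches below 2 times, so this difference was not called. Only 12 reads stand behind the HBE value. The difference between the highest and the lowest library was 4.10 on the log2 scale, at percentile 99.4 of 2507 non-coding genes of at least 200 nt with at least 100 reads over the libraries, whose median range was 0.76.

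The gene lies at chr21:26934122-26947480 on the plus strand (GRCh37), and its hairpin MIR155 lies at chr21:26946292-26946356, in an exon of 2 of 2 GENCODE transcripts. The MIR155 row was listed at 0 reads in each library, also in H1299, where the host had 177. None of the 10 neighbours of MIR155HG, the 5 coding genes nearest by start on each side, was called in any pair. Under TMM or upper quartile scaling, however, APP and MRPL39 were called lower in A549 against HBE. Starts of these neighbours ran from -7968489 nt (BTG3) to 318404 nt (APP) relative to that of the host. APP, the amyloid precursor, had 16916 reads in HBE, 8637 reads in A549 and 10414 reads in H1299, an order unlike that of MIR155HG. The list of AP-1 and NF-kB genes, factors known to switch on MIR155HG in lymphocytes, had 5 of 21 genes called higher and 5 called lower in H1299 against HBE, and 5 higher and 3 lower in H1299 against A549. Of all genes tested, 8.15% were called higher and 4.59% lower in H1299 against HBE, and 4.22% and 4.55% in H1299 against A549. FOSL1, an AP-1 subunit, had 144 reads in HBE, 165 reads in A549 and 4334 reads in H1299, which is 36.3 times the level of HBE (30.9 to 43.4). JUN, its partner, had 717, 924 and 2139 reads, and RELB, an NF-kB subunit, had 262, 196 and 837, and both were called higher in H1299 against either line. JUNB went the other way, with 7121 reads in HBE, 675 reads in A549 and 643 reads in H1299, and so did NFKBIA, the inhibitor that holds NF-kB in the cytoplasm, with 2694, 822 and 302. In A549 against HBE the list had 0 genes called higher and 4 called lower, 7 under TMM scaling. Scaled by NM reads, 6.03% of all genes tested were called higher and 3.23% lower in this pair. Of 7 known targets of miR-155, CEBPB, a transcription factor, had 4636, 1765 and 603 reads and INPP5D, the phosphatase SHIP1, had 1050, 160 and 110. These were the 2 targets called lower in both cancer lines against HBE, and 0 were called higher.

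MIR22HG (chr17:1614741-1620468, minus strand, GRCh37) had the most reads of the hosts, 14383 for HBE, 23880 for A549 and 21638 for H1299. Its level was 417, 763 and 760 reads per 1000000 NM reads, so that both cancer lines lay above HBE and the intervals of A549 and H1299 overlapped. A549 had 1.83 times the level of HBE (1.79 to 1.87) and H1299 1.82 times (1.78 to 1.86), both short of the rule of 2 times. H1299 had 0.996 times the level of A549 (0.978 to 1.01). The row NR_028505 (1356 nt) alone held 98.7% of the reads of the gene in HBE, 99.5% in A549 and 99.3% in the H1299 library, and by reads it ranked 25th, 12th and 15th of the 7466 non-coding rows. The row NR_028502 (2659 nt) had 92, 58 and 112 reads, NR_028504 (1439 nt) had 91, 70 and 38, and NR_028503 (1852 nt) was listed at 0 in all 3 libraries. The rows with few reads therefore ordered the lines differently from NR_028505. Without NR_028505 the log2 ratio of MIR22HG was -0.37 for A549 against HBE, where it was 0.87 with it, and -0.01 for H1299 against HBE, where it was also 0.87. The isoforms share exons, so the split of reads between them can depend on how reads that match several rows were counted, which was not tested. Where on NR_028505 the reads lie was not available.

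The hairpin MIR22 (chr17:1617197-1617281) lies in an exon of 30 of the 32 GENCODE transcripts of MIR22HG, and 30 of the 32 hold the mature sequence printed above. The MIR22 row was listed at 0 reads in each library, beside 14383 to 23880 reads on the host. MIR22 and MIR155 were thus the 2 of 12 hairpins at 0 reads, and the other 10 had at least 10 reads in every library. Of all 1628 precursor genes, 39.3% were at 0 for HBE, 33.5% for A549 and 35.4% for H1299, and 17.6%, 21.1% and 19.6% had at least 10 reads. Whether reads of miR-22 or miR-155 were counted on the host rows was not tested, since read positions are not in the tables. The hairpins of MIR17HG, which lie in an exon of 3 of 16 GENCODE transcripts, did have reads on their own rows.

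Of the neighbours of MIR22HG, 0 of 10 were called in any pair, and SCARF1 was called lower in A549 against HBE under TMM or upper quartile scaling. PRPF8, a core protein of the spliceosome, had 13036 reads in HBE, 17612 reads in A549 and 8754 reads in H1299, and RPA1, which binds single-stranded DNA, had 3043, 3455 and 2464. Of 5 known targets of miR-22, SIRT1, a deacetylase, had 302, 720 and 658 reads and was called higher in both cancer lines against HBE, and the other 4 were not called. Under TMM scaling SIRT1 was called in neither pair, and CDK6, a cell cycle kinase, was called lower in A549 against HBE.

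MIR31HG (chr9:21380072-21559890, minus strand, GRCh37), a lncRNA known for roles in senescence and hypoxia, had 778 reads in HBE, 1189 reads in A549 and 758 reads in H1299. A549 was highest, and per 1000000 NM reads the levels were 22.5 for HBE, 38.0 for A549 and 26.6 for H1299, with intervals that did not overlap. A549 had 1.68 times the level of HBE (1.54 to 1.85), H1299 had 1.18 times that of HBE (1.07 to 1.31), and H1299 was 1.43 times lower than A549 (1.30 to 1.57). No pair was called, and the sign for H1299 against HBE turned under TMM scaling, from 0.24 to -0.16 on the log2 scale. The single row NR_027054 (2166 nt) had 8.24, 14.3 and 9.79 RPKM.

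The intronic hairpin MIR31 (chr9:21512114-21512184), which lies in an exon of 0 of 27 GENCODE transcripts of the host, had 201 reads in HBE, 3261 reads in A549 and 3131 reads in H1299. Both cancer lines were far above HBE, at 17.8 times (15.5 to 20.7) and 18.8 times (16.4 to 21.9), and were close to each other at 1.06 times (1.00 to 1.11). Among precursor genes such calls were common, with 36.1% of those tested called in A549 against HBE, 44.5% in H1299 against HBE and 34.6% in H1299 against A549. The row of MIR31 held 0.258, 2.74 and 4.13 reads for each read of MIR31HG. Where the hairpin row stood apart in HBE, the host differed between libraries by at most 1.68 times. Among known targets of miR-31, RHOA, a regulator of the actin skeleton, had 4601, 5629 and 4905 reads and RDX, which links actin to the membrane, had 4893, 8990 and 5422, and neither was called, except that RDX was called higher in A549 against HBE when scaled by all reads.

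MIR31HG lies near the CDKN2A locus, and of its 10 neighbours, taken as 5 coding genes on each side, 8 had enough reads in each pair. MTAP, an enzyme of methionine salvage, had 132 reads in HBE, 452 reads in A549 and 1525 reads in H1299, and was called higher in all 3 pairs. CDKN2A, which codes for the inhibitors p16 and ARF, had 147, 153 and 680 reads, the 153 in a line known to have lost the gene, and CDKN2B, which codes for p15, had 311, 445 and 626. Both were called higher in H1299 against HBE, and CDKN2A also in H1299 against A549. The call of CDKN2B was lost under TMM or upper quartile scaling. MTAP and CDKN2B start on either side of CDKN2A, and where their A549 reads come from was not tested. The call of MTAP in A549 against HBE rests on such reads. H1299, in which these 3 genes were highest, was not the line in which MIR31HG was highest.

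MIR17HG (chr13:91999940-92049846, plus strand, GRCh37), host of the miR-17-92 cluster that MYC is known to activate, had 147 reads in HBE, 213 reads in A549 and 244 reads in H1299. The intervals of HBE and A549 did not overlap, whereas those of A549 and H1299 did. A549 had 1.60 times the level of HBE (1.29 to 1.98), H1299 had 2.01 times that of HBE (1.63 to 2.48) and 1.26 times that of A549 (1.04 to 1.52), and none was called. The long row NR_027350 (5018 nt) had 115, 180 and 217 reads, which is 0.526, 0.937 and 1.21 RPKM. The short row NR_027349 (927 nt) had 32, 33 and 27 reads, so the order over the lines came from the long row.

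The 6 hairpins of the cluster had far more reads than their host, together 76.0, 40.7 and 52.8 reads for each host read. MIR20A had 4226 reads in HBE, 3177 reads in A549 and 5612 reads in H1299, and MIR17, whose mature form has the same seed, had 2279, 1629 and 3936. MIR92A1 had 4127, 3189 and 2351 and so was lowest in H1299, where MIR17 and MIR20A were highest. These 3 were the most abundant, and MIR18A (145, 164 and 523 reads), MIR19A (123, 196 and 166) and MIR19B1 (275, 306 and 288) had fewer. MIR18A was called higher in H1299 against HBE, at 4.36 times (3.63 to 5.29), and against A549, at 3.50 times (2.94 to 4.20). MIR17 was called only in H1299 against A549, at 2.66 times (2.51 to 2.82), and the other 4 in no pair. Members of 1 cluster, cut from a shared primary transcript, therefore differed in their ratios, from 0.690 times for MIR92A1 to 4.36 times for MIR18A in H1299 against HBE. Of the cluster, miR-19b and miR-92a are also made from a second hairpin elsewhere, of which MIR19B2 had 3, 4 and 2 reads and MIR92A2 had 112, 91 and 67, both named after their values were seen. Under TMM scaling the log2 ratio of MIR18A in A549 against HBE went from 0.32 to -0.05, and those of MIR19B1 against HBE from 0.29 to -0.07 in A549 and from 0.34 to -0.05 in H1299.

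**Figure D3:**
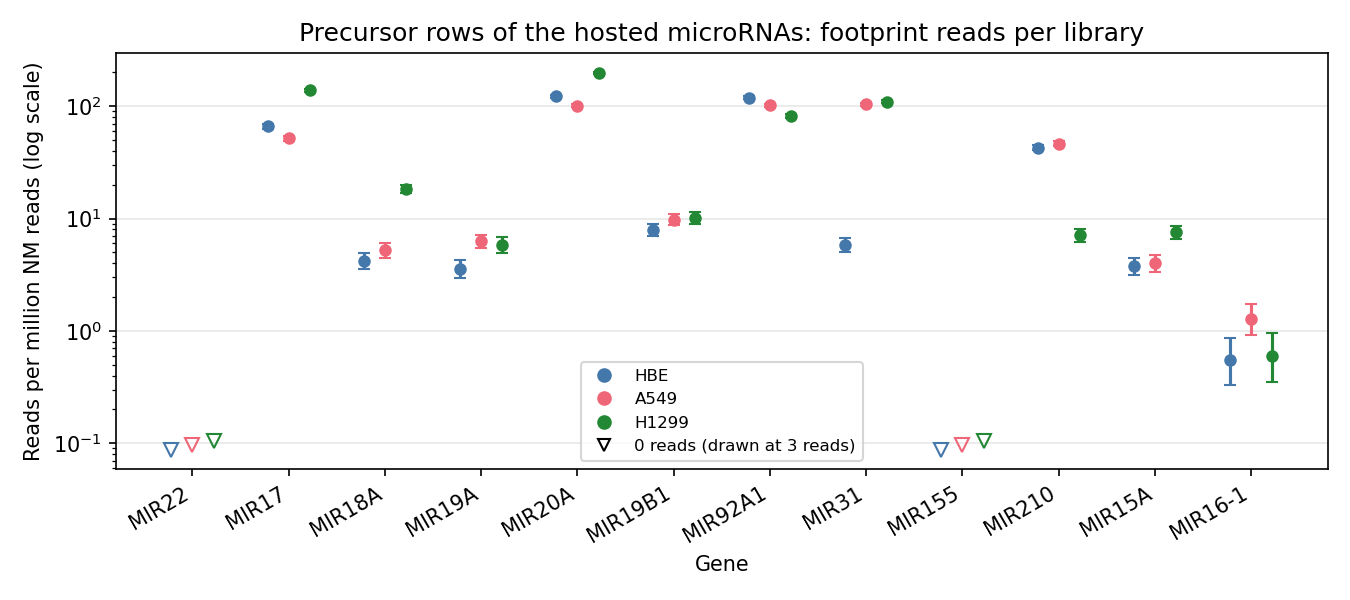
Reads per 1000000 NM reads (log scale) of the 12 hairpin rows in HBE (blue), A549 (red) and H1299 (green), 1 library each, with exact 95% counting intervals; open triangles mark rows with 0 reads, drawn at 3 reads. MIR31 is low in HBE alone (5.83, against 104 and 110), MIR210 is low in H1299 alone (7.09, against 42.6 and 46.2), and MIR22 and MIR155 have 0 reads.

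Of 17 MYC and E2F genes, 1 was called higher and 1 lower in A549 against HBE, 4 higher and 2 lower in H1299 against HBE, and 5 higher and 1 lower in H1299 against A549. Of all genes tested, 9.27%, 12.7% and 8.77% were called in these pairs. MYC had 5828 reads in HBE, 2928 reads in A549 and 8888 reads in H1299, so that it was lowest in A549, as were MIR17 and MIR20A. MIR17HG, MIR18A, MIR19A and MIR19B1 were instead lowest in HBE, and MIR92A1 was lowest in H1299. For MIR18A in A549 against HBE the interval of the ratio, 0.991 to 1.57, included 1. Under TMM scaling MIR18A and MIR19B1 were lowest in A549. Whether MYC acts on the cluster here was not tested. NPM1, a nucleolar chaperone, had 32515, 35738 and 66721, and ODC1, the first enzyme of polyamine synthesis, had 2500, 2582 and 5746, and both were called higher in H1299 against either line. NPM1 lost both calls under TMM scaling, and the list then had 0 genes called higher and 2 lower, 2 higher and 2 lower, and 3 higher and 1 lower in the 3 pairs. MYC, not called in A549 against HBE when scaled by NM reads, was called lower there under TMM or upper quartile scaling. CCND2, cyclin D2, was called lower in both cancer lines against HBE, with 2676, 198 and 212 reads. Of 6 known targets of the cluster, THBS1, an angiogenesis inhibitor, had 6375, 2771 and 2131 reads and CDKN1A, the cell cycle inhibitor p21, had 1714, 659 and 511. CDKN1A was called lower in both cancer lines against HBE. THBS1 was called only in H1299 against HBE, at 2.47 times lower (2.35 to 2.59). TGFBR2, a TGF-beta receptor, had 2230, 3944 and 1356 reads and was called lower in H1299 against A549. E2F1 was the target called higher, in A549 against HBE, with 187, 481 and 261 reads. Under TMM scaling E2F1 was not called, and THBS1 was also called lower in A549 against HBE. Of the 10 neighbours of MIR17HG only SPRY2, an inhibitor of growth factor signalling, was called, with 122 reads in HBE, 221 reads in A549 and 1356 reads in H1299. SPRY2 starts far from the host, at -11089962 nt relative to it.

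MIR210HG (chr11:565657-568457, minus strand, GRCh37), the host of the hypoxia microRNA miR-210, was lower in both cancer lines than in HBE, as was DLEU2 under TMM scaling only. It had 74 reads in HBE, 41 reads in A549 and 37 reads in H1299 on its single row NR_038262 (2303 nt), which is 0.737, 0.465 and 0.449 RPKM. The values of A549 and H1299 were near each other, and their intervals overlapped slightly with that of HBE. A549 was 1.63 times lower than HBE (1.10 to 2.46) and H1299 1.64 times lower (1.10 to 2.52), and neither was called.

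The hairpin MIR210 (chr11:568089-568198), which lies in an exon of 0 of 9 GENCODE transcripts, had 1469 reads in HBE, 1446 reads in A549 and 202 reads in H1299. H1299 stood alone, at 5.99 times lower than HBE (5.18 to 6.99) and 6.50 times lower than A549 (5.62 to 7.58), and both were called. A549 had 1.09 times the level of HBE (1.01 to 1.17), with a sign that turned under TMM scaling, from 0.12 to -0.25. For each read of the host, MIR210 had 19.9, 35.3 and 5.46 reads. The low value of MIR210 in H1299 had no counterpart in the host, whose ratio of H1299 to A549 was 0.993 (0.619 to 1.59).

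Transcription of MIR210HG is known to be driven by the hypoxia factor HIF. Of 27 HIF targets, 4 were called higher and 4 lower in A549 against HBE, 2 higher and 6 lower in H1299 against HBE, and 1 higher and 8 lower in H1299 against A549. Under TMM scaling these were 4 and 4, 1 and 9, and 1 and 9. The median log2 ratios of the list were -0.08, -0.31 and -0.36, below those of all genes, 0.38, 0.41 and 0.03. LDHA, which makes lactate, had 44009 reads in HBE, 33726 reads in A549 and 9821 reads in H1299, and NDRG1, a stress response gene, had 2071, 1592 and 345, so that both, like MIR210, were low in H1299 alone. CA12, a carbonic anhydrase, was high in A549 alone, with 143, 5535 and 137 reads, and so was PFKFB3, a regulator of glycolysis, with 1716, 7392 and 1325. DDIT4, an inhibitor of mTORC1, had 19474, 3778 and 1440 reads and VEGFA, the angiogenic growth factor, had 4372, 1349 and 1091, and these were highest in HBE. The members of the list thus had several orders over the lines. None of 5 known targets of miR-210 was called in any pair, among them ISCU, an iron-sulphur cluster scaffold, with 510, 312 and 283 reads. Among the 10 neighbours, CDHR5, a cadherin of the brush border, had 1877, 3603 and 1410 reads and IRF7, an interferon factor, had 99, 247 and 160, and both were called higher in A549 against HBE, though not under TMM or upper quartile scaling. CDHR5 was also called lower in H1299 against A549.

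DLEU2 (chr13:50530806-50699856, minus strand, GRCh37), a lncRNA of a region often deleted in leukaemia, had 80 reads in HBE, 74 reads in A549 and 76 reads in H1299. On its single row NR_002612 (2768 nt) these are 0.663, 0.699 and 0.768 RPKM, and the intervals of all 3 libraries overlapped. A549 had 1.02 times the level of HBE (0.733 to 1.42), H1299 had 1.15 times that of HBE (0.830 to 1.60) and 1.13 times that of A549 (0.809 to 1.58). No difference was detectable at this depth, and the widest of these intervals reached 1.60 times. Under TMM scaling the log2 ratios against HBE turned negative, from 0.03 to -0.34 in A549 and from 0.20 to -0.19 in H1299. Its range over the lines, 0.20 on the log2 scale, was at percentile 2.99 of the 2507 non-coding genes. DLEU2L, a copy of the gene that can share reads with it, had 25, 35 and 30 reads.

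The hairpins MIR15A (chr13:50623255-50623337) and MIR16-1 (chr13:50623109-50623197) lie wholly in an exon of 0 of 29 GENCODE transcripts of DLEU2. In 8 of the 29, however, an exon overlaps part of MIR15A, and in 0 part of MIR16-1. MIR15A had 130 reads in HBE, 125 reads in A549 and 216 reads in H1299, and MIR16-1 had 19, 40 and 17. Neither was called in any pair, and MIR15A was highest in H1299 while MIR16-1 was highest in A549. The 2 hairpins together had 1.86, 2.23 and 3.07 reads for each read of DLEU2. The mature sequence of miR-16 is also made from MIR16-2, which had 1427, 1455 and 2505 reads and was named after its values were seen. The methods list FANSe2 settings but do not explain how a read that matches both hairpins was counted. Of 7 known targets of miR-15a and miR-16, CCND3, cyclin D3, had 1459 reads in HBE, 5229 reads in A549 and 1558 reads in H1299, and was called higher in A549 against HBE and lower in H1299 against A549. CCND1, cyclin D1, had 955, 1582 and 1149 and was not called. Under TMM or upper quartile scaling CDK6 was called lower in A549 against HBE. None of the 10 neighbours of DLEU2 was called. TRIM13, a ubiquitin ligase whose gene overlaps DLEU2 on the other strand, had 675, 748 and 870 reads, and whether the counting used strand is not stated in the sources.

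**Figure D4:**
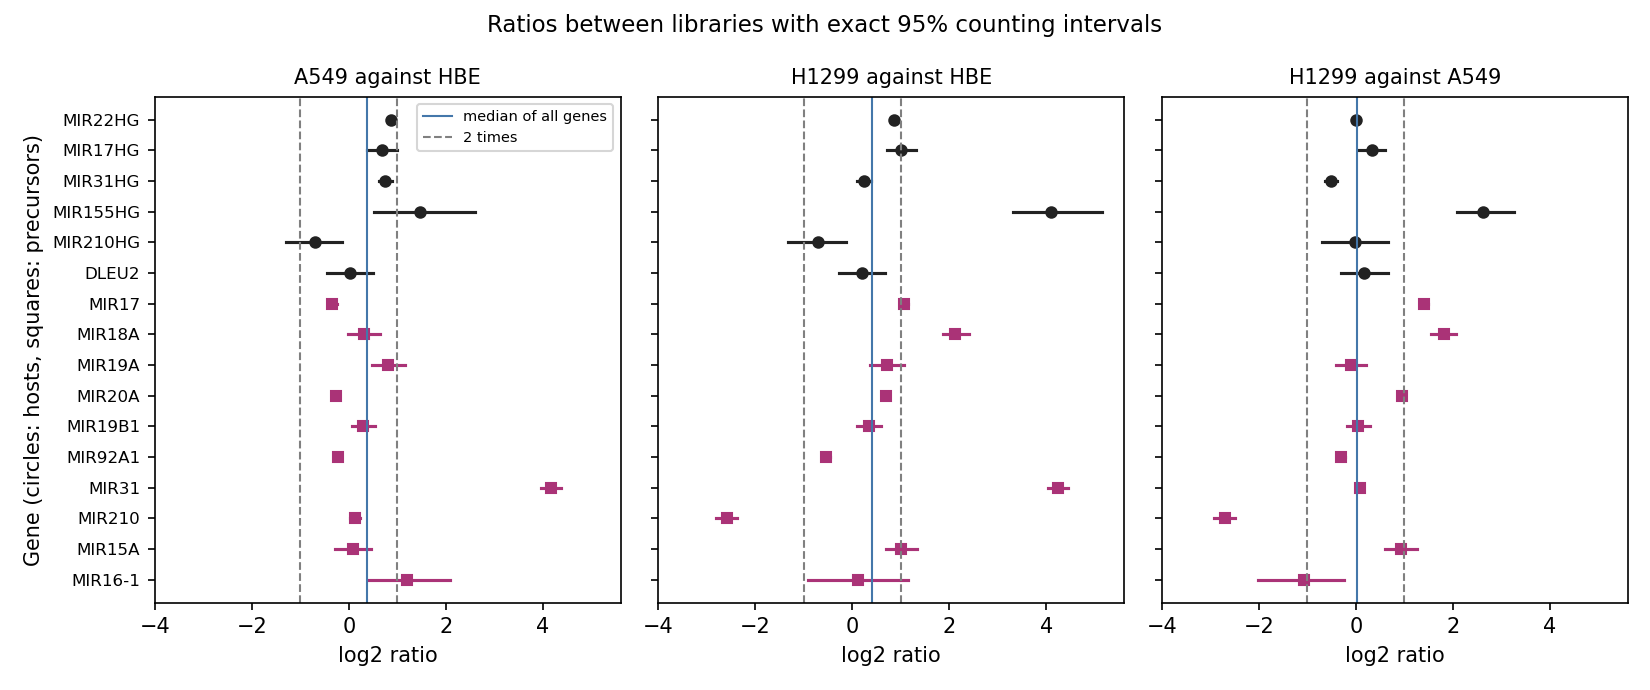
Log2 ratios of the 6 hosts (circles) and the 10 hairpins with reads (squares) in each pair of libraries, with exact 95% counting intervals (not visible where narrower than the symbol); the blue line is the median of all genes and the dashed lines mark 2 times in either direction. Of the hosts only MIR155HG lies wholly beyond a dashed line, in both pairs with H1299, whereas MIR31 and MIR210 lie far from their hosts MIR31HG and MIR210HG.

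In the machinery that makes and uses these microRNAs, every call involved H1299. Of its 14 genes, 0 were called in A549 against HBE, 4 higher and 1 lower in H1299 against HBE, and 2 higher and 1 lower in H1299 against A549. Of all genes tested, 9.27%, 12.7% and 8.77% were called in these pairs. XPO5, exportin 5, had 1724 reads in HBE, 1339 reads in A549 and 4046 reads in H1299, which is 2.84 times the level of HBE (2.69 to 3.01). AGO1, an Argonaute, had 663, 775 and 1579 reads, and AGO2, the Argonaute that can cut its target, had 1539, 1999 and 2786. DGCR8, the partner of DROSHA, was the gene called lower, with 1665, 1456 and 597 reads. In H1299 against A549, DGCR8 lost its call under upper quartile scaling, and AGO1 lost its call when scaled by all reads. DICER1 had 1656, 1615 and 2915 reads, and DROSHA had 2607, 1738 and 1797 and was not called. The list's median log2 ratio in H1299 against HBE was 0.30, below the 0.41 of all genes, and under TMM scaling only XPO5 was called higher and only DGCR8 lower in this pair.

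For each host the non-coding genes with the nearest pattern were taken as those with the smallest distance between centred log2 levels, over 2506 candidates and only 3 libraries. For MIR155HG the nearest was DLGAP1-AS2, with 13 reads in HBE, 27 reads in A549 and 206 reads in H1299 and a distance of 0.30, followed by LINC00839 with 24, 35 and 214 reads. The other 5 hosts each had candidates within 0.03, as is usual where many genes are compared over 3 points. Nearest to MIR22HG was LOC101929076 (31, 52 and 47 reads), to MIR17HG LOC100507091 (47, 68 and 77), to MIR31HG LOC101929698 (337, 513 and 324), to MIR210HG FLJ10038 (971, 533 and 495) and to DLEU2 FAM86B3P (219, 201 and 205). No shared role follows from such a likeness.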

How the data were processed

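Footprint libraries of HBE, A549 and H1299 (1 per line) were rRNA-depleted with a Ribo-Zero kit and with probes against rRNA and miR-21, prepared with a kit for small RNAs and run on a HiSeq. The authors truncated reads below Phred 10 and mapped them with FANSe2 (version not stated) to RefSeq RNA; the submitters' notes name hg19. The deposited values are whole-number read counts per transcript, not normalized, and RPKM, which the authors computed from the count, transcript length and library total. The mRNA and RNC libraries and read positions were not analysed here.

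Reads were summed over the rows of a gene and divided by the library's NM reads; log2 ratios had 0.5 read added. Intervals are exact (Poisson for reads, Clopper-Pearson for ratios, 95%) and cover counting error only, since reads carry no molecular identifiers. The call rule is that of the report. Scripts were tested on simulated data. Scaling alternatives used TMM and upper quartile factors of edgeR 4.0.16 (R 4.3.3), with no test; other values came from Python 3.11.15 with scipy 1.17.1. Deposited starts count from 0 and are printed from 1; gene spans and exons come from GENCODE version 44 on GRCh37. All genes of the lists were matched.

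The hosts, lists and rules were chosen with earlier results of these data known. The genes named are all hosts with their rows and hairpins; of each list or neighbourhood, those among the 5 with most reads and the 3 called with the largest ratio in each direction; and the 3 nearest in pattern. DROSHA was added as background, and SCARF1 was named after its values were seen. Some genes of these lists are not reported here.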

Additional observations from a re-analysis of the deposited data

How the results depend on the processing

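The number of hosts called stayed the same in 27 of 27 recomputed counts over the 3 pairs: scaling by all reads, TMM or upper quartile, other added counts, minimum reads and folds, and, chosen after seeing the data, MIR22HG without the row NR_028505. Added reads do not enter the interval that decides a call, so that setting could not change a call of a host or list. Every host had at least 20 reads in each pair, so dropping the minimum could change none either. With 1.0 RPKM required beside 10 reads, 2 hosts were detected in HBE and 2 in A549 (MIR22HG and MIR31HG) and 4 in H1299 (with MIR155HG and MIR17HG) in place of 6. Of 201 log2 ratios of single genes, 42 moved by more than their counting interval. TMM scaling brought the median gene to 0.016, 0.012 and -0.0039 on the log2 scale and gave MIR22HG 0.51 and 0.47 in A549 and H1299 against HBE, MIR17HG 0.31 and 0.61, and MIR31HG 0.39 and -0.16. Of 144 counts of called genes per list, 13 moved by more than 1.5 times, among them the coding microRNA hosts, from 3 higher to 1 higher in A549 and from 4 higher to 1 lower in H1299 against HBE under TMM. No paired analysis was possible because the labels give 1 library per line, so that none could be left out either. Depth limits MIR155HG in HBE (12 reads), MIR210HG and DLEU2 most.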

Other observations

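Of 21 other lncRNAs named as microRNA hosts, 1 was called lower in A549 against HBE, 2 were called higher and 2 lower in H1299 against HBE, and 1 was called higher in H1299 against A549. In these pairs 4.07%, 7.07% and 3.93% of non-coding genes of at least 200 nt were called. MIR205HG, the host of an epithelial microRNA, had 1185 reads in HBE and 27 in each cancer line, which is 39.1 times lower in A549 (27.2 to 60.7) and 35.6 times lower in H1299 (24.8 to 55.2). MIRLET7BHG, a host of let-7 microRNAs, had 13959 reads in HBE, 8171 reads in A549 and 4823 reads in H1299, and was called lower in H1299 against HBE. MIR100HG had 60, 78 and 259 reads and MIR137HG had 28, 73 and 139, and both were called higher in H1299 against HBE.

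Of 40 coding genes that carry a microRNA in an intron, 3 were called higher and 0 lower in A549 against HBE, 4 higher and 0 lower in H1299 against HBE, and 2 higher and 1 lower in H1299 against A549. Under TMM scaling these were 1 and 0, 0 and 1, and 2 and 1, so that each higher call in H1299 against HBE was lost, those of MCM7 and SMC4 included. Scaled by NM reads, 9.27%, 12.7% and 8.77% of all genes tested were called in the 3 pairs. MCM7, a subunit of the replicative helicase and the host of the miR-106b-25 cluster, had 7293 reads in HBE, 7550 reads in A549 and 15648 reads in H1299. SMC4, a condensin subunit that hosts miR-15b and miR-16-2, had 3700, 5532 and 6670 reads, 2.18 times higher in H1299 than in HBE (2.10 to 2.27).

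DLEU1, a lncRNA on the other strand that starts inside the span of DLEU2, had 31008 reads in HBE, 22167 reads in A549 and 26685 reads in H1299. Nearly all were on the row NR_109974, where it had 30875, 22008 and 26555. Where on this row the reads lie is not in the tables, and whether the counting used strand is not stated in the sources. DLEU1 was named after its values were seen.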
